A study of Mus musculus with 2 samples.

Results

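The genes described here are 35 mouse genes of glycolysis and of the response to low oxygen. They were taken as a named list, and every probeset that the platform annotation assigns to one of these symbols alone was used. All 35 were measured, of 15087 measured genes and 21947 genes named on the array. They comprise 19 genes of glucose uptake, glycolysis and lactate formation, 8 genes that encode or control the hypoxia-inducible factors, and 8 other targets of these factors. The list named 559 probesets, of which 517 (92.5%) were bright, meaning that the higher of their 2 values reached 3.17, the median value of the whole table. Over all probesets with a single symbol that share was 77.2%.

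The series holds 2 Affymetrix arrays of total RNA, 1 from cells given 300 nM of an LSD1 inhibitor with the code name compound B and 1 from cells given the solvent DMSO. LSD1 is a histone demethylase. Both cultures started from 1 mouse line, the embryonic stem cells Bry-GFP: FLK1-positive cells were isolated from embryoid bodies on day 3, cultured with either agent, and sorted for CD41 after 2 days. The labels name the cells hemogenic endothelium, the endothelium from which blood cells arise. Both arrays had signal for Cdh5 (9.84 with the inhibitor and 7.89 with DMSO, in log2 intensity), the endothelial cadherin gene. Itga2b, which encodes CD41, was at 5.996 with the inhibitor and 6.191 with DMSO and differed by -0.12 over 29 bright probesets. The endothelial markers Emcn (4.45 with the inhibitor and 3.62 with DMSO) and Sox17 (4.23 and 3.85) were dim. Signal was also present for the erythroid marker Hba-x (10.22 with the inhibitor and 12.46 with DMSO) and the smooth muscle marker Acta2 (10.46 and 11.06). These levels do not show that the cells were endothelium alone. With 1 array per condition there is no replicate and no test, and this small number of arrays bounds the precision. Every statement below describes these 2 arrays. Each SD given is taken across the probesets of a gene and is no error between samples.

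Glycolysis converts glucose to pyruvate in the cytoplasm, and lactate dehydrogenase reduces pyruvate to lactate when respiration does not take it up. The hypoxia-inducible factors are pairs of an oxygen-sensitive alpha subunit and a stable beta subunit. With oxygen present, prolyl hydroxylases of the EGLN family mark the alpha subunit for the ubiquitin ligase that contains VHL. When oxygen is scarce the alpha subunit persists, binds DNA at hypoxia response elements and activates genes of glucose uptake, glycolysis, mitochondrial turnover and collagen hydroxylation, as well as some of its own hydroxylases. Blood stem cells and early embryonic cells are known for a strong use of glycolysis.

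The list as a whole differed little between the arrays. The log2 difference of a gene, inhibitor minus DMSO, is the median over its bright probesets. The median over the 35 genes was 0.06, and that over all measured genes was 0.06 too. Of the 35 genes, 32 (91.4%) had a difference smaller than 0.5 in either direction, against 85.7% of all measured genes. A gene was counted as higher or lower if the difference was at least 2-fold, 1 in log2, with at least 75% of its bright probesets in that direction. By this rule 1 of the 35 genes was higher, Egln3, where 1.72% of all measured genes were. None was lower, where 0.563% of all measured genes were. At 1.5-fold, 2 were higher, Egln3 and Pgk1, against 5.85% of all genes, and none was lower, against 2.66%. A difference above 0 was found for 21 of the 35 genes (60.0%), close to the share of 59% among all measured genes.

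**Figure D1:**
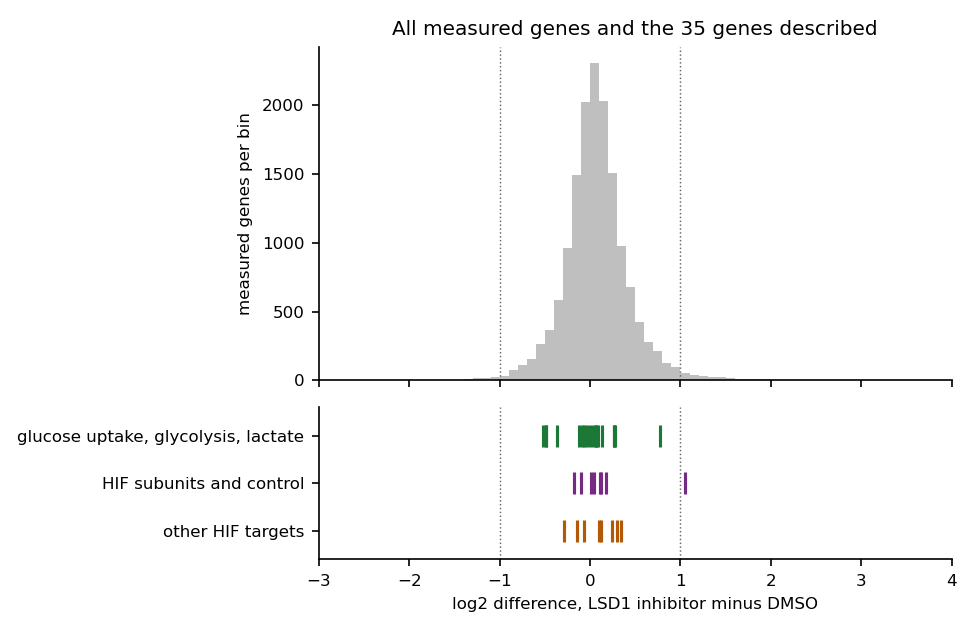
Upper panel: number of measured genes per bin of 0.1 in the log2 difference, LSD1 inhibitor minus DMSO. Lower panel: each tick is 1 of the 35 genes in its group, and the dotted lines mark 2-fold. The ticks lie between -0.52 for Hk1 and 1.06 for Egln3, and Egln3 is the single tick beyond a dotted line.

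The promoters of 4 genes are shown: Egln3 and Pgk1, whose differences were the highest of the 35, and Slc2a1 and Tpi1, which were lower in each of their probesets and have no probeset that the annotation also assigns to another gene. The windows run from 250 bases before to 50 bases after the start site, 5′ to 3′ on the strand of the gene, from RefSeq on GRCm38.p6. They are chr12:54203825-54204124 on the minus strand for Egln3, chrX:106186850-106187149 on the plus strand for Pgk1, chr4:119108495-119108794 on the plus strand for Slc2a1 and chr6:124814109-124814408 on the minus strand for Tpi1. Capitals mark ACGTG and GCGTG, the core letters of a hypoxia response element, on either strand, so that CACGT and CACGC are marked too. A palindrome CACGTG counts as 2 overlapping matches.
Egln3: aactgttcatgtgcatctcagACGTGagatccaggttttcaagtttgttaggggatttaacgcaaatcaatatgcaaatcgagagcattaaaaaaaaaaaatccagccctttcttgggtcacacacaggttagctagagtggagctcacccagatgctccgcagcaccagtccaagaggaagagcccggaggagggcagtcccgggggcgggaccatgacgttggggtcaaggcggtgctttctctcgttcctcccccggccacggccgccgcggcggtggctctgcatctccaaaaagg
Pgk1: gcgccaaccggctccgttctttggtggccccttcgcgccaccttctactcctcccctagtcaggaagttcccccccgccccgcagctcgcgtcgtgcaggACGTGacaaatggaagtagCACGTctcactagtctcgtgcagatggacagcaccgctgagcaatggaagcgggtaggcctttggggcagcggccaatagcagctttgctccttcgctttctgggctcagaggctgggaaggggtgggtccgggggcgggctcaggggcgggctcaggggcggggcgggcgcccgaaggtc
Slc2a1: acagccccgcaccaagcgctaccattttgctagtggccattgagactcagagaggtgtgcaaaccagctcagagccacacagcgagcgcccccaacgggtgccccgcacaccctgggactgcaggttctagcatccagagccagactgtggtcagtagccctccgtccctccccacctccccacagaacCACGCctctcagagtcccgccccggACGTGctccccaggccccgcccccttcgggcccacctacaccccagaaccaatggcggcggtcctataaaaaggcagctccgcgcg
Tpi1: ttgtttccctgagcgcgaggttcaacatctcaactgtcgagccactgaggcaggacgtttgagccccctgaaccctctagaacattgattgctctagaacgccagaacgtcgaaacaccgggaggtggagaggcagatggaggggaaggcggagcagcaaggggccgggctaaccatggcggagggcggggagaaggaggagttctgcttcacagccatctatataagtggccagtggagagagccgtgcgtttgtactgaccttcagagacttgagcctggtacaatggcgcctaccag
The Egln3 window holds 1 match, whose first base is at position -229 from the start site. The Pgk1 window holds 2, at -150 and -131, and the Slc2a1 window 2, at -61 and -36. The Tpi1 window holds 0. RefSeq windows were matched for 31 of the 35 genes, and 26 of these (83.9%) had a match in at least 1 window, against 46.7% of 27025 genes with a window. Over the 44 windows of these genes 34 (77.3%) had a match, against 43.8% of 32851 windows of all genes. All genes here means every gene with a window, measured on the arrays or not. Base composition was not matched, although each of the searched runs contains CG, and the number of windows per gene was not matched either. The list includes genes named as targets of the hypoxia-inducible factors, so a higher share could be expected beforehand. Of the windows with matches, those of Egln3 and Pgk1 belong to genes that differed by 1.06 and 0.78, and that of Slc2a1 to a gene that differed by -0.49. Whether the letters bear on the differences was not tested. A match is a run of letters and does not show that a factor binds there.

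Among the genes that bring glucose into the pathway, Slc2a1 (-0.49) and Hk1 (-0.52) had the most negative differences, though neither passed either rule. The others were near 0. Slc2a1 encodes GLUT1, the widely expressed glucose transporter. Its level was 10.18 with the inhibitor and 10.82 with DMSO. All 8 of its probesets were lower with the inhibitor, by amounts between -0.66 and -0.38, so the probesets hardly differed among themselves. The gene's difference was -0.49 (0.712-fold, SD 0.10 over 8 probesets), and 5.16% of all measured genes lay at or below it. Slc2a3, which encodes the high-affinity transporter GLUT3, had levels of 7.62 with the inhibitor and 7.32 with DMSO, but 8 of its probesets were higher and 7 lower, for a difference of 0.03.

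Hexokinase traps glucose in the cell by phosphorylating it. Hk1, the form bound to mitochondria in most tissues, had a level of 5.41 with the inhibitor and 5.88 with DMSO, with 19 of 25 probesets lower. Its difference of -0.52 (SD 0.66) was the lowest of the 35 genes, and its probesets ranged from -1.86 to 0.75, much wider than those of Slc2a1. Hk2, the inducible form, had a difference of -0.05 with 9 of 23 probesets higher. Gpi1, the isomerase that makes fructose 6-phosphate, was at 9.48 with the inhibitor and 9.25 with DMSO and differed by 0.13, with 21 of 29 probesets higher.

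None of the 3 phosphofructokinase genes, whose product is the main control point of the pathway, passed either rule. Pfkp, the platelet form, had the largest of their differences, 0.28 (SD 0.58) with 22 of 32 probesets higher (levels of 6.71 with the inhibitor and 6.27 with DMSO). Pfkl, the liver form, differed by 0.06 and Pfkm, the muscle form, by -0.12. Aldolase splits the sugar into trioses. Aldoa differed by -0.07, with levels of 10.39 with the inhibitor and 10.57 with DMSO. Aldoc differed by -0.09, and its 6 bright probesets, 3 higher and 3 lower, all lay at or below 5.77 on the inhibitor array and 4.78 on the DMSO array. For Aldoc and for Eno2 (0.06, with single probesets from -2.17 to 3.36) the spread over probesets was 1.13 and 1.56, and these 2 differences say little. Of the 10 genes from glucose uptake to aldolase, 4 had a difference above 0 and 6 below, and the median was -0.06.

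In the second part of the pathway no gene passed the 2-fold rule, and Pgk1 alone passed at 1.5-fold. Triose phosphate isomerase, encoded by Tpi1, interconverts the trioses. Tpi1 was at 9.16 with the inhibitor and 9.54 with DMSO. All 10 of its probesets were lower, between -0.57 and -0.12, and the gene differed by -0.37 (0.773-fold, SD 0.15). The probesets of Tpi1 thus agreed in direction although the size was small.

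Pgk1 encodes phosphoglycerate kinase, which makes the first ATP of the pathway and is a long-known target of the hypoxia-inducible factors. Its level was 10.88 with the inhibitor and 10.03 with DMSO. All 21 of its probesets were higher, by 0.12 to 1.46, and the gene differed by 0.78 (1.71-fold, SD 0.41), which 3.50% of all measured genes reached. The size depended on the brightness of the probeset. The 6 probesets with a DMSO value of at least 11 differed by 0.12 to 0.37, with a median of 0.31. The 8 with DMSO values from 9 to below 11 had a median of 0.81, and the 7 below 9 had a median of 1.21, although the dimmest of these differed by 0.17. Across the 21 probesets, which share the same 2 arrays, the DMSO value and the difference correlated at r = -0.62 (Spearman's rho -0.69). The difference contains the DMSO value, so they are not independent. With the brighter probesets alone the difference of Pgk1 was 0.37, and the cause was not tested.

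Pgam1, the mutase that follows, had levels of 9.06 with the inhibitor and 8.87 with DMSO and differed by 0.27, with 17 of 18 probesets higher. Genes with every bright probeset on the same side were uncommon on the array: 4.64% of measured genes had all of them higher and 1.54% all of them lower. Among the 35, Pgk1 was the gene with all higher, and Slc2a1, Tpi1 and Eno1 were the 3 with all lower. The more probesets a gene has, the harder this is to meet, and it does not replace a replicate.

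Eno1, the enolase of most tissues, rests on an unusual set of probesets. Its 4 bright probesets of a single symbol were all lower with the inhibitor, between -0.66 and -0.29, with a gene difference of -0.48 (SD 0.16). Their levels of 5.81 with the inhibitor and 6.35 with DMSO were below the medians of the probesets given next. Another 19 probesets name Eno1 together with Eno1b and Gm4735, and their signal cannot be split between these genes. The 18 bright ones among them had medians of 11.43 with the inhibitor and 11.23 with DMSO, 10 were higher and 8 lower, and their median difference was 0.00 (range -0.40 to 0.30). With these probesets kept, the difference of Eno1 was -0.11. The direction of Eno1 is therefore uncertain. Aldoa shares 4 probesets with Aldoart1 in the same way, and these had a median difference of 0.01.

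The end of the pathway was close to 0. Pkm, pyruvate kinase, was at 10.76 with the inhibitor and 10.58 with DMSO, 9 of its 18 probesets were higher and 9 lower, and the difference was -0.01. The probesets are not annotated by exon here, so the M1 and M2 forms of the enzyme could not be told apart. Ldha, the lactate dehydrogenase subunit that favours lactate formation, was at 10.17 with the inhibitor and 10.11 with DMSO (difference 0.06). Ldhb, the other subunit, differed by 0.09. Pdk1, a kinase that inhibits pyruvate dehydrogenase, is a target of the hypoxia-inducible factors. It was at 5.87 with the inhibitor and 5.31 with DMSO, and differed by 0.26 with 13 of 18 probesets higher (SD 0.68). From Tpi1 to Pdk1, 6 of 9 genes were above 0 with a median of 0.06.

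**Figure D2:**
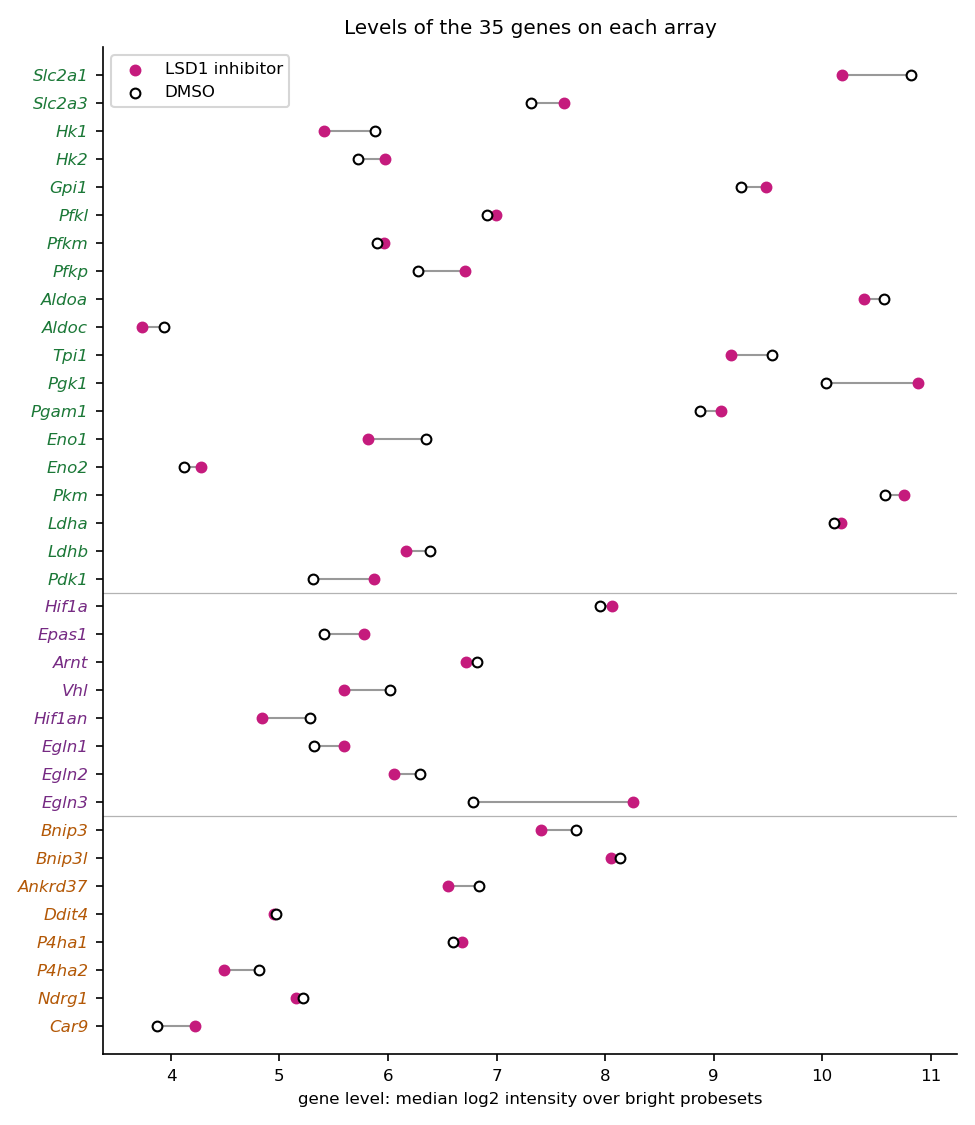
Gene levels, in median log2 intensity over bright probesets, with the inhibitor (filled circles) and with DMSO (open circles), for the 35 genes in pathway order. Levels of different genes come from different probesets and are not comparable, so only the gap within a row is to be read. The widest gap is that of Egln3 (8.25 with the inhibitor and 6.78 with DMSO).

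The gap between the levels in that plot need not equal the gene's difference, because each level is a median over probesets of its own. For 9 of the 35 genes (Hk2, Pfkm, Pkm, Ldhb, Vhl, Egln2, Ankrd37, Ddit4 and Ndrg1) the gap and the difference had opposite signs. Vhl had the widest such gap, -0.42 with a difference of 0.05. No direction is drawn for these 9 genes.

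The subunits of the hypoxia-inducible factors were nearly equal on the arrays. Hif1a, the alpha subunit present in most cells, had levels of 8.06 with the inhibitor and 7.96 with DMSO and differed by 0.17, with 12 of 18 probesets higher. Epas1, the HIF-2 alpha subunit that is prominent in endothelium, was at 5.78 with the inhibitor and 5.41 with DMSO and differed by 0.12 (12 of 20 probesets higher). Arnt, the shared beta subunit, was at 6.72 with the inhibitor and 6.82 with DMSO and differed by -0.10. These are transcript signals, and the factors are known to be set mainly at the level of protein stability, which arrays do not measure.

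Of the genes that restrain the factors, Egln3 stood apart. Vhl, the recognition subunit of the ligase, differed by 0.05, and Hif1an, the asparagine hydroxylase that blocks the coactivator site, by -0.18 with 5 of 13 probesets higher. Egln1, the principal oxygen sensor in most tissues, was at 5.60 with the inhibitor and 5.32 with DMSO (difference 0.11, SD 0.66 over 7 probesets). Egln2 differed by 0.01 with 8 of 13 probesets higher. Egln3, a prolyl hydroxylase that is itself induced by low oxygen, was at 8.25 with the inhibitor and 6.78 with DMSO, and differed by 1.06 (2.08-fold, SD 0.60), with 10 of 12 bright probesets higher. At or above this difference lay 1.53% of all measured genes.

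The probesets of Egln3 fell into separate classes. The 10 that exceeded 6 on at least 1 array were all higher with the inhibitor, by 0.90 to 1.62 with a median of 1.17. Their values ran from 7.29 to 9.55 with the inhibitor and from 6.19 to 8.58 with DMSO. The other 6 probesets reached at most 4.19 with the inhibitor and 4.32 with DMSO, and all 6 were slightly lower with the inhibitor (-0.81 to -0.13). Of these 6, 2 passed the brightness filter and are the 2 lower ones among the 12. The gene lies close to the 2-fold limit. It stayed at or above it in 10 of the 14 alternatives that keep this threshold, with values from 0.96 to 1.17. It fell short when the level-dependent trend was removed (0.96), when dim probesets were kept (0.98), with the mean over probesets (0.97) and with the median gene set to 0 (log2 difference just under 1).

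**Figure D3:**
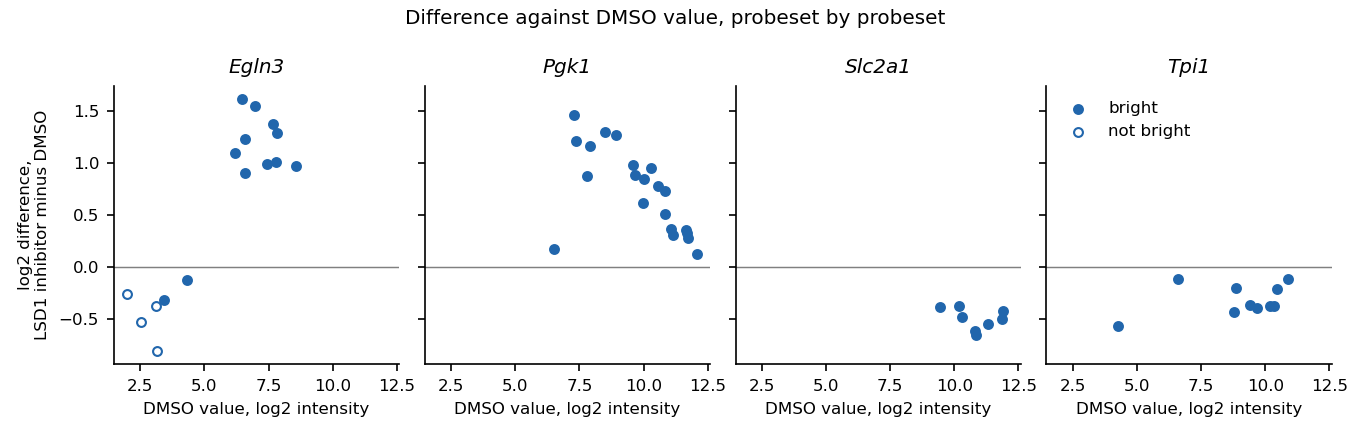
Log2 difference of each probeset, LSD1 inhibitor minus DMSO, against its DMSO value in log2 intensity. Filled points are bright probesets and open points are not. The Egln3 probesets above 6 lie between 0.90 and 1.62 and its dim ones below 0, the Pgk1 points decline with brightness apart from the dimmest, and those of Slc2a1 and Tpi1 are all below 0.

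None of the 8 other targets of the hypoxia-inducible factors passed either limit, and their differences ran from -0.29 to 0.34, 5 above 0 and 3 below, with a median of 0.11. Bnip3 and Bnip3l encode receptors for the removal of mitochondria. Bnip3 was at 7.41 with the inhibitor and 7.73 with DMSO (difference -0.06, 8 of 11 probesets lower), and Bnip3l at 8.05 with the inhibitor and 8.14 with DMSO (-0.15, 4 of 5 probesets lower). Ddit4, an inhibitor of mTORC1 signalling, had the highest difference of the group, 0.34, but with 3 of 5 probesets higher and levels of 4.95 with the inhibitor and 4.97 with DMSO. Ankrd37, an ankyrin repeat gene, differed by 0.12, and Ndrg1, a stress-responsive gene of differentiating cells, by 0.10.

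The 2 collagen prolyl 4-hydroxylase subunits passed neither rule, and their differences were smaller than their SDs over probesets (0.49 for P4ha1 and 0.63 for P4ha2). P4ha1 differed by 0.30 with 15 of 20 probesets higher (levels of 6.68 with the inhibitor and 6.60 with DMSO), and P4ha2 by -0.29 with 11 of 15 probesets lower (4.49 with the inhibitor and 4.81 with DMSO). Car9, a surface carbonic anhydrase used as a marker of hypoxic tissue, differed by 0.24, but 5 of its 11 probesets were bright and none of these exceeded 5.82 with the inhibitor or 5.69 with DMSO. The 8 targets thus gave no common direction.

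**Figure D4:**
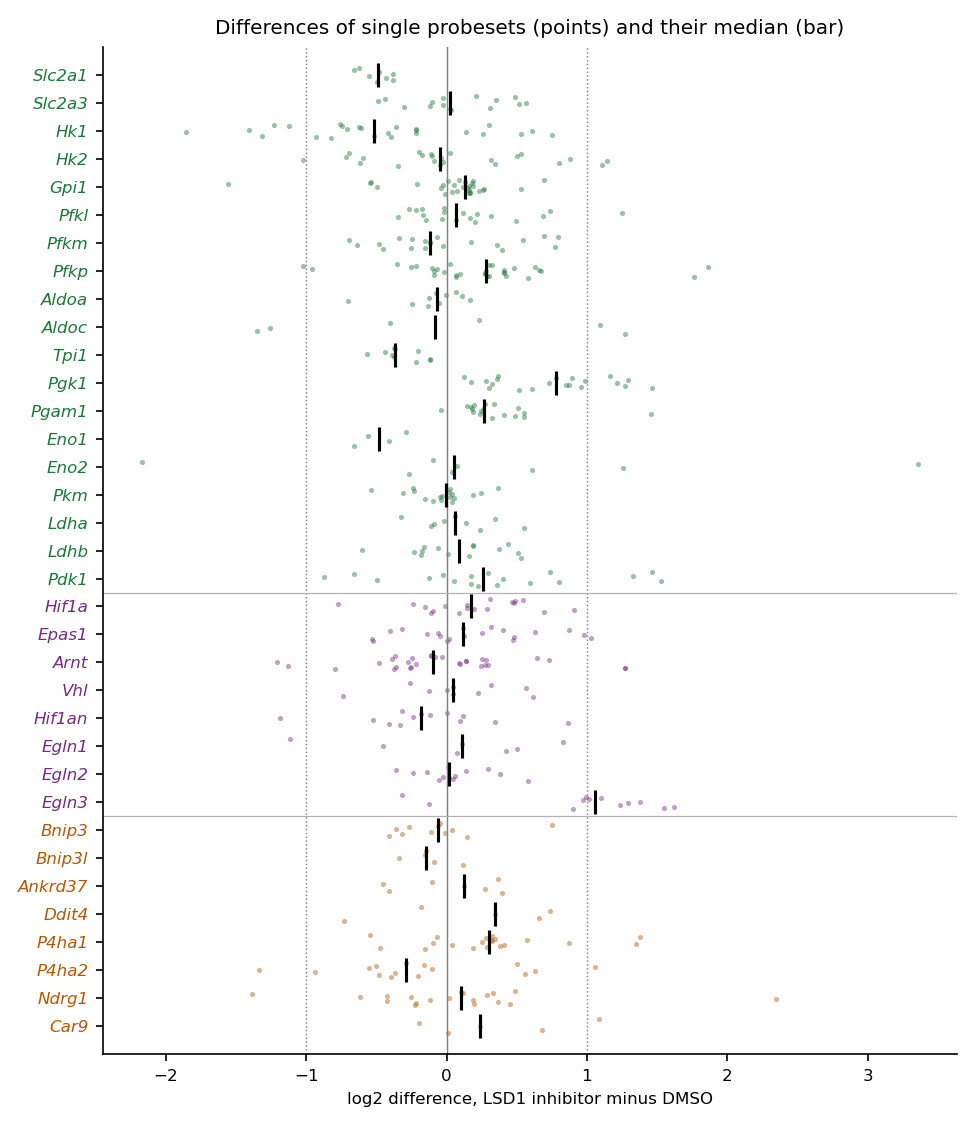
Each point is the log2 difference of 1 bright probeset, LSD1 inhibitor minus DMSO, and the bar is the median of the gene. Dotted lines mark 2-fold. Points of most genes straddle 0, those of Pgk1 are all above it, and those of Slc2a1, Tpi1 and Eno1 are all below it.

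Related genes outside the 35 were read from 5 lists. Of 17 measured genes among the other glycolysis and lactate genes, 1 was lower and none was higher past 2-fold, where 0.563% of all measured genes were lower and 1.72% higher. The same shares stand behind the counts of the lists that follow. The lower gene was Pfkfb4, a bifunctional enzyme that sets the level of the phosphofructokinase activator fructose 2,6-bisphosphate and a target of the hypoxia-inducible factors. Pfkfb4 was at 4.52 with the inhibitor and 6.03 with DMSO, with 18 of 22 probesets lower, and differed by -1.23 (SD 0.99). With the brighter probesets alone it differed by -0.89, and with odd-ranked and even-ranked probesets alone by -1.44 and -0.95, and in these 3 settings it did not pass the rule. Tigar, a phosphatase that lowers the same activator, differed by 0.72 with 8 of 9 probesets higher and passed at 1.5-fold. So did Slc2a4 (0.62), the insulin-regulated transporter, with 9 of its 14 probesets bright and all 9 higher. Slc2a4 was dim on both arrays, at 4.54 with the inhibitor and 3.59 with DMSO. Its bright probesets ran down to 3.93 with the inhibitor and to 2.50 with DMSO. Not all of them reached the brightness cut of 3.17 with DMSO, so the filter favoured a higher direction. Gapdh had a single probeset and was not measured.

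No gene of pyruvate entry and the TCA cycle passed the rule (28 measured, median 0.02, all within 0.5). The widest in each direction were Pdk4 at -0.48, dim on both arrays (levels of 3.70 with the inhibitor and 4.01 with DMSO), and Mdh1, malate dehydrogenase, at 0.28. In the pentose phosphate pathway none of 6 passed, with Rpia, the ribose 5-phosphate isomerase, at -0.71 (SD 0.92) and Pgd, phosphogluconate dehydrogenase, at 0.30 with 17 of 18 probesets higher. None of 13 other genes of HIF control passed. Hif3a, an alpha subunit with inhibitory forms, was at 5.04 with the inhibitor and 5.55 with DMSO and differed by -0.69 with 17 of 18 probesets lower. Cited2, a competitor of the factors for their coactivators, differed by -0.44 with 7 of 7 lower.

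Among 28 measured further targets of the factors, 1 was higher and none was lower past 2-fold. This was Hmox1, heme oxygenase 1, which degrades haem and answers to oxidative stress and haem as well as to low oxygen. Hmox1 was at 9.68 with the inhibitor and 8.49 with DMSO, with 9 of 9 probesets higher, and differed by 1.36 (SD 1.04). One probeset differed by 4.14, and without it the median was 1.28. Vegfa, the endothelial growth factor, was at 6.95 with the inhibitor and 6.55 with DMSO and differed by 0.70 with 17 of 24 probesets higher, and passed neither rule: at 1.5-fold too few of its probesets agreed. Loxl2, a lysyl oxidase, passed at 1.5-fold downward (-0.64). The median of this list was 0.02.

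Lists of cell type markers had wider medians than these genes. Of 10 endothelial markers, 5 were higher past 2-fold (Cdh5, Esam, Egfl7, Plvap and Sox18), all 10 were above 0, and the mean of their levels was 6.87 with the inhibitor and 5.79 with DMSO. Of 9 measured erythroid markers, 7 were lower (Hba-x, Hbb-y, Klf1, Epb42, Slc4a1, Hemgn and Epor), and the mean level was 6.67 with the inhibitor and 7.98 with DMSO. In the megakaryocyte list Pf4 was lower of 5 measured markers (mean levels 5.02 with the inhibitor and 5.80 with DMSO). In the macrophage list Mrc1 and Lyz2 were higher of 5 (5.40 with the inhibitor and 4.64 with DMSO). The other macrophage markers, Csf1r, Cd68 and Adgre1, differed by 0.05, 0.17 and 0.35. In the smooth muscle list Dcn was lower of 6 (6.35 with the inhibitor and 6.73 with DMSO). The inhibitor levels of Pf4 (2.70) and Dcn (2.89) lay below the brightness cut of 3.17, while all their bright probesets reached it with DMSO. The filter thus favoured a lower call for both. Gp9, Ppbp and Cd14 had fewer than 4 bright probesets of their own. These shifts run alongside the differences of Egln3, Pgk1 and Slc2a1, and their part in them was not tested. In sorted bulk cells, fewer cells of a type and less RNA per cell cannot be told apart.

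**Figure D5:**
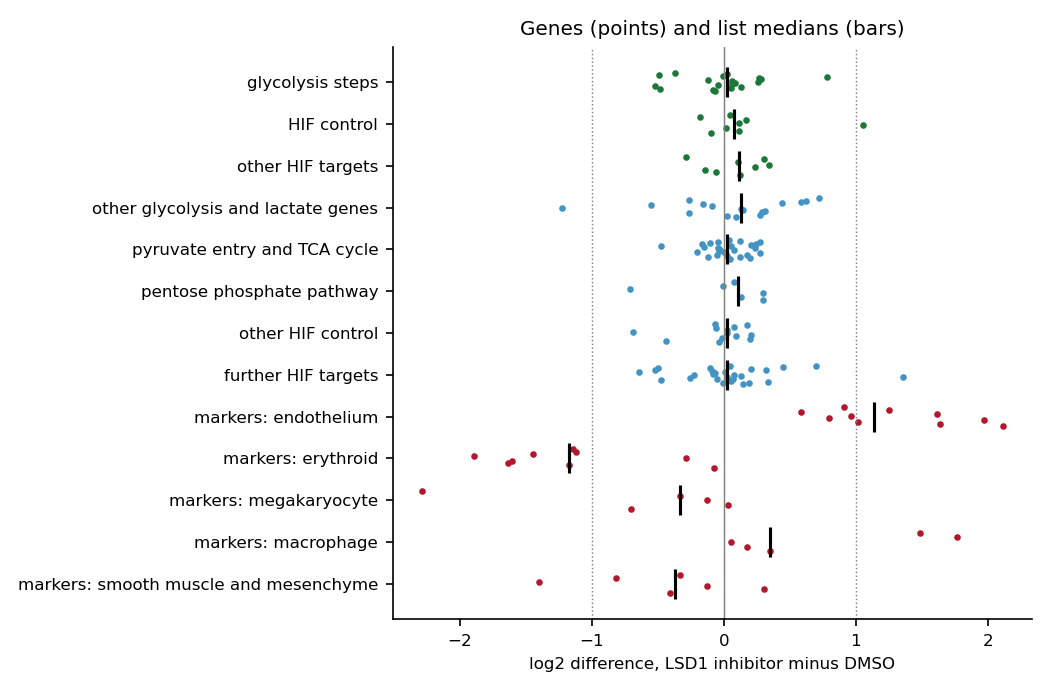
Log2 differences of single genes (points), LSD1 inhibitor minus DMSO, and list medians (bars), for the 3 groups of the 35 genes, 5 related pathway lists and 5 marker lists. The medians of the pathway lists lie between 0.02 and 0.13, that of endothelial markers at 1.13 and that of erythroid markers at -1.18.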

How the data were processed

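The data are 2 Affymetrix arrays, 1 per condition, grouped by the sample titles. The deposited table gives 1 value per probeset and array, read here as log2 intensity from its range (0.157 to 13.5), and the sources used here do not say how the authors summarised and normalized it. Ranked by size, the values of both arrays never lie more than 0.085 apart. The table holds 1048575 probesets and with its header is as long as a spreadsheet can be, so some genes may lack probesets here. The platform annotation names 270105 with 1 symbol and 5737 with several, and the latter were left out. Older symbols were updated through the RefSeq gene table of GRCm38.p6, which touched 1 of the 35 genes (Pkm, 19 probesets). No gene coordinates are given because the probesets' build is not named.

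Values were used as deposited, with no further scaling. A gene was measured with at least 4 bright probesets, and level and difference are medians over them. With 1 array per condition no model was fitted and no p-value exists. The procedure was tested on simulated data with independent noise for each probeset. That simulation held no variation between cultures or arrays, so it does not bear on how far the differences would repeat. The 35 genes, the lists, the 4 genes whose promoters are printed and the rules were chosen with earlier results of these data known. All 35 genes are named, and of each related list the genes past 2-fold and the 2 with the largest difference, besides genes past 1.5-fold that were named after their values were seen. Alternatives covered scaling, the dim filter, the choice of probesets, their summary and the thresholds. Python 3.11.15, numpy 2.4.6, pandas 2.3.3, statsmodels 0.14.6 (lowess, span 0.2) and matplotlib 3.10.9 were used.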

Additional observations from a re-analysis of the deposited data

How the results depend on the processing

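Of 595 gene values recomputed under alternatives, 593 moved by less than the gene's SD over probesets and none of the called ones turned sign. The 2 that moved further were Pgk1 with the brighter probesets (0.37) and Eno1 with probesets of several symbols kept (-0.11). The sign held in every alternative that measured the gene for 23 of the 35 genes, 13 with a difference above 0 and 10 below 0. These 23 include Ankrd37 and Ddit4, for which no direction is drawn, and Eno1, whose direction is uncertain. The sign turned in at least 1 alternative for the other 12. Their differences in the main setting were all near 0, but single alternatives reached 0.65 for Eno2, 0.32 for Vhl and 0.31 for Hk2. The median over the 35 genes stayed between -0.03 and 0.11 in 14 alternatives. The count of higher genes among the 35 was 0 with the level-dependent trend removed, without a dim filter, with the mean over probesets, at 3-fold and with the median gene set to 0 (an alternative added after the data were seen), and 2 at 1.5-fold. Among other glycolysis genes the count of lower genes was 0 with the brighter, odd-ranked or even-ranked probesets alone and at 3-fold, and the count of higher genes was 2 at 1.5-fold. Among further targets of the factors the count of higher genes was 2 with odd-ranked probesets (Hmox1 and Stc2) and with at least 1 bright probeset (Adm and Hmox1), 0 at 3-fold, and the count of lower genes was 1 at 1.5-fold. At 1.5-fold, 1 gene was lower in the pentose phosphate list (Rpia) and 1 in the list of other HIF control (Hif3a). For counts gained or lost at 1.5-fold and 3-fold the threshold itself is the cause. Adm was counted through its 1 bright probeset (3.77 with the inhibitor and 1.81 with DMSO), which passed the brightness cut through the inhibitor array alone. For the other counts the cause was not tested. The other HIF targets had a median of -0.05 with the brighter probesets (5 genes) and 0.00 with even-ranked ones (4 genes). No paired analysis was possible because each condition has 1 array. The table gives no detection call, so dim values limit Aldoc, Eno2, Car9, Slc2a4, Pdk4, Pf4 and Dcn most.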

Other observations

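Some well-known genes of low oxygen had too few bright probesets to be measured, and their values are given as they stand. Adm, the adrenomedullin gene, has 3 probesets of its own, 1 of which was bright, at 3.77 with the inhibitor and 1.81 with DMSO, while the median of the 3 differences was -0.08. Epo, the erythropoietin gene, had 3 bright probesets of 10, all lower with the inhibitor (-0.46 to -0.34). Cxcr4, a chemokine receptor gene, had 3 bright probesets of 5, 1 higher and 2 lower (-1.16 to 1.03). The single probeset of Gapdh was at 8.52 with the inhibitor and 8.05 with DMSO.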
